A study of Mus musculus with 32 samples.

Results

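Livers of 8 jet-lagged mice aged 12 weeks were compared across the day, with 2 mice killed at zeitgeber time 2 (ZT2), 3 at ZT10 and 3 at ZT18. They were taken by their array titles from a series of 32 liver arrays, 1 mouse to an array. All 32 animals were wild-type C57BL/6 males, each housed alone. The jet-lagged animals had alternated since the age of 4 weeks between light schedules 8 h apart, and their steady counterparts kept a fixed cycle of 12 h light and 12 h dark. ZT counts the hours since light onset. How often the schedule was moved, and how each ZT relates to the last move, is not given in the sources used here. The 8 steady mice of 12 weeks (2, 3 and 3 at the same times) and the 8 jet-lagged mice of 30 weeks (again 2, 3 and 3) serve here for comparison, and the 8 steady mice of 30 weeks enter only the estimate of the spread between mice.

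The liver clock is a loop of transcription factors. ARNTL (also called BMAL1) pairs with CLOCK or NPAS2 on E-box sequences and switches on the Per and Cry genes, whose proteins then repress the pair. A second arm runs through the nuclear receptors REV-ERB alpha and beta (Nr1d1, Nr1d2), which repress Arntl, and another through DBP, TEF, HLF and their opponent NFIL3, which share the D-box. Feeding, temperature and glucocorticoids also set daily rhythms in liver, among them those of sterol and bile acid synthesis, heat shock proteins and the fasting response.

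A value below is log2 of a gene's processed signal minus log2 of the 75th percentile of its array, so that 0 is the 75th percentile of all probes. A gene was called when its Benjamini-Hochberg adjusted p over 23110 genes, from limma, was under 0.05. Between 43.4% and 57.3% of probes (24191 to 31894) were well above background on the 8 arrays, and ZT2 mouse 2 had the lowest share of all 32 arrays. The 8 arrays lay on 8 different slides. All 11 measured hepatocyte markers were above background on all 8 arrays, and their mean level lay between 9.27 and 9.78. Markers of pancreatic acinar cells, a tissue next to the liver, differed widely between mice. Their mean over 10 measured genes of 20 was 1.30 and -2.43 at ZT2, -2.16, 3.78 and 3.59 at ZT10, and -2.21, 1.45 and -2.52 at ZT18. The mean of 18 measured skeletal muscle markers of 20 was -1.49 and -3.74 at ZT2, -0.35, 0.63 and 1.42 at ZT10, and -3.44, -3.62 and 1.72 at ZT18. Only 4 genes of each of these 2 lists were above background on all 8 arrays, and 0 members of either list were called over the 3 times. In whole liver RNA, fewer cells of a type and less RNA per cell cannot be told apart.

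Gene expression still varied with time of day under jet lag. Over the 3 times 1301 of 23110 genes varied (5.63%), with a median range (distance between the top and bottom of the 3 fitted group means) of 0.83 among the called genes and 0.29 among all genes. The highest level lay at ZT2 for 782 of the called genes, at ZT10 for 184 and at ZT18 for 335. ZT2 was the highest or the lowest time for 97.6% of the called genes and for 81.0% of all genes. In steady mice, also with 2 at ZT2, it was so for 55.1% of the called genes and 64.6% of all genes. The jet-lagged mean at ZT2 rests on only 2 mice. Without ZT2 mouse 2 the test called 489 genes, of which 388 were among the 1301. A fit with slide as a fixed block called 536 genes.

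The pairs of times differed in how many genes they called. ZT10 minus ZT2 called 928 genes (4.02%), 379 of them higher (1.64%) and 549 lower (2.38%) at ZT10. ZT18 minus ZT2 called 1839 (7.96%), 729 higher (3.15%) and 1110 lower (4.8%) at ZT18. ZT18 minus ZT10, the only pair with 3 mice on each side, called 6 genes (0.026%), 1 higher (0.00433%) and 5 lower (0.0216%). An unadjusted p under 0.05 was reached by 1620 genes, a count that includes those that would reach it by chance. Among the genes called over the 3 times, the median absolute difference was 0.17 between ZT18 and ZT10, 0.62 between ZT10 and ZT2, and 0.78 between ZT18 and ZT2. In the steady mice the same 3 pairs called 3304 genes for ZT18 minus ZT10 (14.3%, with 7.76% higher and 6.54% lower), 1938 for ZT10 minus ZT2 (8.39%) and 1239 for ZT18 minus ZT2 (5.36%). Without ZT2 mouse 2 the jet-lagged counts were 470 for ZT10 minus ZT2 and 701 for ZT18 minus ZT2.

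**Figure D1:**
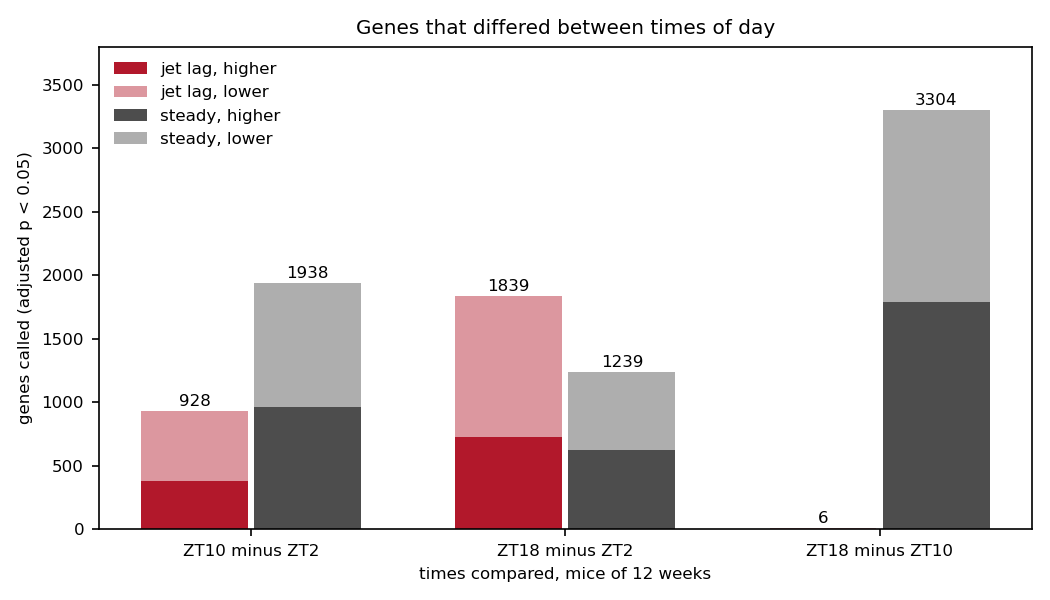
Number of genes called (vertical axis) for each pair of times in mice of 12 weeks, jet-lagged in red and steady in grey, split into genes higher (dark) and lower (light) at the later time. The jet-lagged bar for ZT18 minus ZT10 holds 6 genes, against 3304 in steady mice.

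Of the 22 core clock genes, all measured, 8 varied over the 3 times in jet-lagged mice, against 19 in steady mice, where 4032 of all genes were called (17.4%). The median range of the 22 genes was 0.82 under jet lag and 2.45 in the steady schedule, against 0.29 and 0.34 over all genes tested. Genes called under jet lag included Per1, Per2, Per3, Ciart, Nr1d1, Tef and Hlf, and 7 of the 8 were lowest at ZT2. Nr1d1 was the exception, with its highest level at ZT2. The count was 3 without ZT2 mouse 1 and 6 without ZT2 mouse 2.

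Promoters of 4 of these genes are shown because each holds, in the 250 bases before its first listed start, a sequence that clock factors are known to read. They come from RefSeq (GRCm38.p6), are written 5′ to 3′ on the gene's own strand, and have the E-box CACGTG (Per1, Ciart, Tef) or the D-box TTATGTAA (Per3) in capitals. Both strands were searched.
Per1 (chr11:69098699-69098948, plus strand): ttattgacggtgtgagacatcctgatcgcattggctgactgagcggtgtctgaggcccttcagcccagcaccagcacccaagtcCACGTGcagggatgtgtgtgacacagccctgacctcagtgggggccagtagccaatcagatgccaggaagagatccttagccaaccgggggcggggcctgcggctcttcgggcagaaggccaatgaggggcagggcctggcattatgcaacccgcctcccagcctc
Ciart (chr3:95882229-95882478, minus strand): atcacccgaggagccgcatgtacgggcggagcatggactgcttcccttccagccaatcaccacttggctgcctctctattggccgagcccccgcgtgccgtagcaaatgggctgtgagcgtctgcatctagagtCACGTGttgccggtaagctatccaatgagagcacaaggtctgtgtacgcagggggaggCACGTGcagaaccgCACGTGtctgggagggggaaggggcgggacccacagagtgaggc
Tef (chr15:81802423-81802672, plus strand): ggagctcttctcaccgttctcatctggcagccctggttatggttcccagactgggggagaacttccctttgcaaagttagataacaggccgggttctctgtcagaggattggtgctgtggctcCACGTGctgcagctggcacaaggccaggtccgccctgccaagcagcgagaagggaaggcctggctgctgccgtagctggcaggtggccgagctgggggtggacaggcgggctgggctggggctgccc
Per3 (chr4:151044666-151044915, minus strand): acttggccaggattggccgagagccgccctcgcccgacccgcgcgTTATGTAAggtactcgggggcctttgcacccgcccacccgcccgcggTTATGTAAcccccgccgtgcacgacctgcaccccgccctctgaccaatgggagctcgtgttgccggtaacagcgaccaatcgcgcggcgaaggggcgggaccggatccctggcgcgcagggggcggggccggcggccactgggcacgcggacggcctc
The E-box of Per1 begins 166 bases before the start and that of Tef 127, the 3 of Ciart begin 116, 58 and 44 bases before it, and the D-boxes of Per3 begin 205 and 158 bases before it. The E-box stood in 6.02% of all 32851 promoters in the table and the D-box in 0.819%. Among the called core clock genes with an entry, 3 of 6 held an E-box, against 2 of 11 with an entry that were not called. A match describes the letters in the window and says nothing of binding.

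The period genes, whose proteins repress ARNTL, were lowest at ZT2 in both schedules. Per2 measured -3.13 and -3.41 at ZT2, -0.80, -0.83 and -0.58 at ZT10, and -0.08, -0.30 and 0.06 at ZT18 in jet-lagged mice, against -4.13 and -3.17 at ZT2, -0.50, -0.57 and -0.78 at ZT10, and -0.63, -0.39 and -0.33 at ZT18 in steady mice. In both schedules every ZT2 mouse was below every other mouse, and in each schedule 1 of the 2 ZT2 mice had Per2 well above background. Its range was 3.26 under jet lag (adjusted p 1.26e-05), and ZT18 minus ZT2 was 3.26 ± 0.34 (SE). With another background correction (normexp on median signals) that difference was 1.57 and remained called. Per1 measured 0.02 and 2.19 at ZT2, 3.11, 3.23 and 3.39 at ZT10, and 3.25, 3.49 and 2.90 at ZT18 in jet-lagged mice, against -0.67 and -0.48 at ZT2, 3.70, 3.83 and 3.42 at ZT10, and 2.60, 1.68 and 1.49 at ZT18 in steady mice. The 2 jet-lagged ZT2 mice lay far apart, both below every later mouse. The jet-lagged range was 2.18 (adjusted p 0.00285), and without ZT2 mouse 1 the adjusted p was 0.166. Per3 had -3.65 and -2.61 at ZT2, -0.98, -1.55 and -1.39 at ZT10, and -1.76, -1.72 and -2.06 at ZT18 in jet-lagged mice, against -6.17 and -6.14 at ZT2, -1.30, -1.11 and -0.81 at ZT10, and -2.90, -2.54 and -3.31 at ZT18 in steady mice. Its jet-lagged range was 1.88 (adjusted p 0.0127), and the call was lost without ZT2 mouse 1 (adjusted p 0.189), with fixed slides (0.0696), with normexp (0.0573) and with the 8 arrays alone (0.0963). Per3 was well above background in both jet-lagged ZT2 mice and in 0 of the 2 steady ones. The time course of Per3 differed between schedules (adjusted p 0.01).

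Ciart, which encodes a repressor of the ARNTL and CLOCK pair, measured -4.46 and -2.61 at ZT2, -0.22, -0.92 and -0.56 at ZT10, and 0.13, -0.91 and -1.31 at ZT18 under jet lag, against -6.08 and -6.45 at ZT2, 1.25, 0.96 and 0.94 at ZT10, and -3.95, -3.93 and -3.69 at ZT18 in steady mice. The jet-lagged range was 3.15 (adjusted p 0.000868, and 0.0598 without ZT2 mouse 1). Ciart was well above background in 1 of 2 jet-lagged ZT2 mice, and in steady mice only at ZT10. In steady mice ZT10 stood alone at the top, whereas the jet-lagged mice of ZT10 and ZT18 overlapped. The schedules differed in the time course of Ciart (schedule by time of day, adjusted p 0.00069).

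Nr1d1, the REV-ERB alpha repressor of Arntl, measured 1.77 and 1.60 at ZT2, -0.02, -1.42 and -0.96 at ZT10, and -1.09, -0.71 and -1.37 at ZT18 in jet-lagged mice. Steady mice had -0.19 and 0.68 at ZT2, 0.60, 1.09 and 1.12 at ZT10, and -4.76, -5.94 and -3.44 at ZT18, where Nr1d1 was well above background in 0 of the 3 mice. Both jet-lagged ZT2 mice lay above the 6 later mice, which overlapped each other. The jet-lagged range was 2.51 (adjusted p 0.0255), which passed the threshold in neither fit that left out a ZT2 mouse (adjusted p 0.217 without mouse 1 and 0.119 without mouse 2). The time courses differed between schedules (adjusted p 0.00168).

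Tef and Hlf, activators that bind D-boxes, varied less. Tef measured 5.22 and 5.93 at ZT2, 6.52, 6.42 and 6.42 at ZT10, and 6.61, 6.37 and 6.54 at ZT18 in jet-lagged mice, with a range of 1.00 (adjusted p 0.0109, and 0.264 without ZT2 mouse 1). Hlf measured 2.21 and 2.31 at ZT2, 2.77, 2.75 and 3.03 at ZT10, and 3.10, 2.94 and 3.03 at ZT18, with a range of 0.81 (adjusted p 0.00483), and passed the threshold in neither fit without a ZT2 mouse (0.0654 and 0.0506). In steady mice the ranges were 3.25 for Tef and 1.44 for Hlf.

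The other 14 core clock genes did not pass the test over the 3 times under jet lag, and 12 of the 22 differed between schedules in their time course, against 438 of all genes (1.9%). Arntl, the partner of CLOCK, measured 0.92 and 0.07 at ZT2, -1.69, -0.24 and -1.36 at ZT10, and -1.42, -0.90 and -0.69 at ZT18 in jet-lagged mice. In steady mice it had 1.83 and 1.96 at ZT2, -3.99, -3.78 and -3.64 at ZT10, and 1.61, 1.20 and 1.47 at ZT18, so that ZT10 fell far below both other times there. Its range was 1.72 under jet lag (adjusted p 0.141) and 5.75 in the steady schedule (adjusted p 1.37e-07), and the interaction had an adjusted p of 0.001. Dbp, the D-box activator that is among the most rhythmic transcripts of liver, had 3.88 and 5.66 at ZT2, 6.08, 4.58 and 5.75 at ZT10, and 5.53, 5.08 and 4.83 at ZT18 under jet lag, against 0.30 and 0.56 at ZT2, 6.73, 6.93 and 6.86 at ZT10, and 2.15, 2.60 and 2.40 at ZT18 in the steady schedule. The jet-lagged groups overlapped at all 3 times, with a range of 0.76, while the steady range was 6.55 (interaction adjusted p 0.000199). Nfil3, the D-box repressor, had a jet-lagged range of 0.27 and a steady one of 2.72 (interaction adjusted p 0.001). Clock had a jet-lagged range of 0.36 and a steady one of 1.63 (interaction adjusted p 0.00995).

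Cry1, a repressor that acts with the period proteins, had -2.80 and -3.64 at ZT2, -2.18, -1.70 and -1.80 at ZT10, and -1.79, -1.60 and -1.58 at ZT18 in jet-lagged mice, against -1.92 and -1.62 at ZT2, -3.43, -3.59 and -3.36 at ZT10, and -0.84, -1.09 and -1.28 at ZT18 in steady mice. The steady low point at ZT10 was not seen under jet lag, where both ZT2 mice were lowest and 1 of them had Cry1 well above background. Its jet-lagged range was 1.37 (adjusted p 0.0787), and the interaction had an adjusted p of 0.00995. Cry2, Rora, Csnk1d, Csnk1e, Bhlhe40 and Bhlhe41 were not called over the 3 times under jet lag, nor were Npas2 and Nr1d2, whose time courses did differ between schedules (adjusted p 0.0454 for Npas2 and 0.0021 for Nr1d2). With acinar and muscle marker levels as covariates, the interaction had an adjusted p of 0.00454 for Dbp, 0.0282 for Nfil3, 0.0415 for Ciart, 0.0496 for Arntl, 0.119 for Nr1d1 and 0.119 for Cry1. Clock, Per3, Npas2 and Nr1d2 also missed the threshold of the interaction with these covariates.

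**Figure D2:**
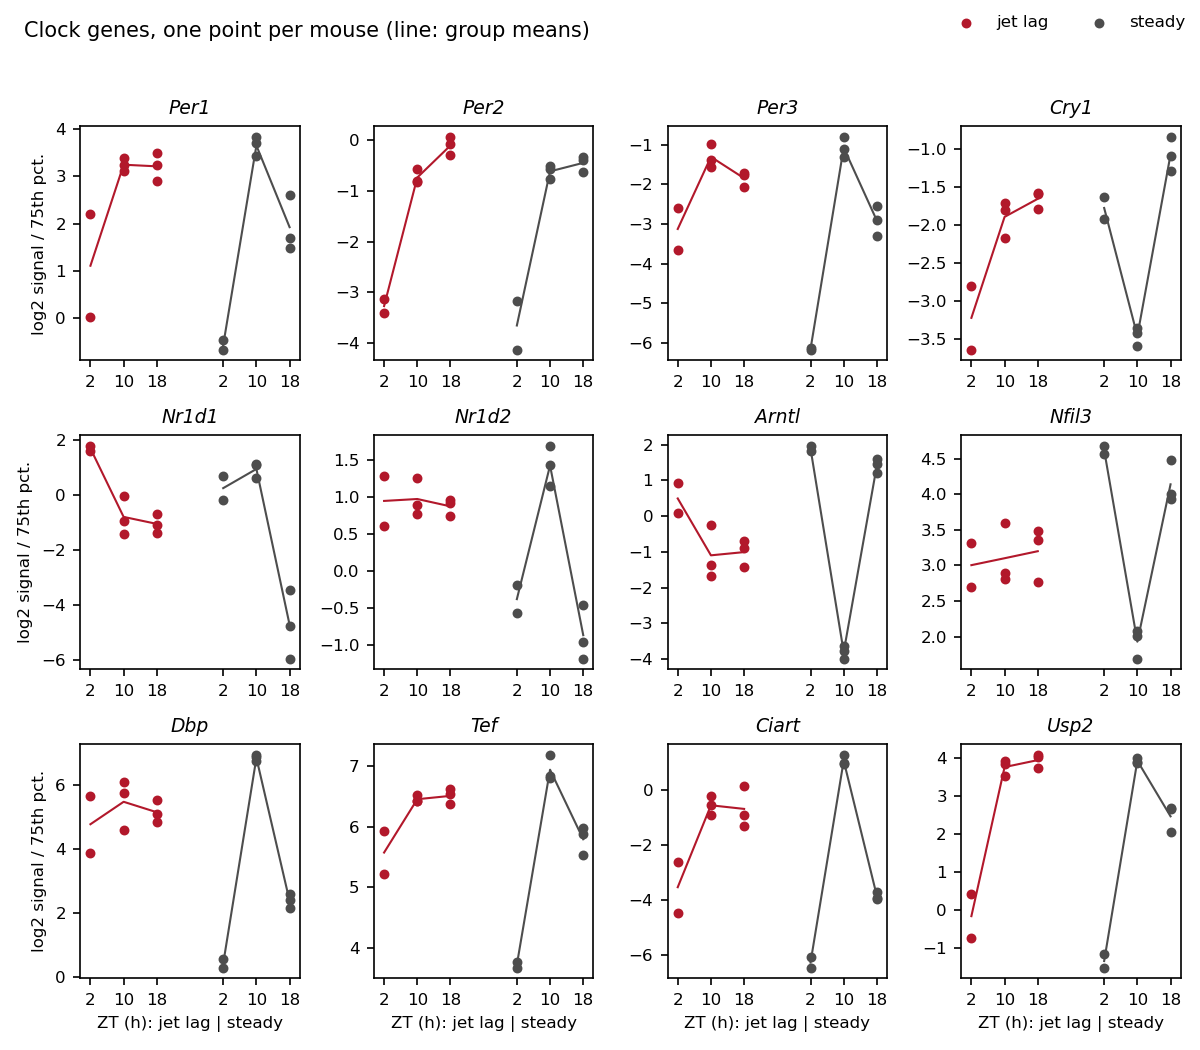
Level of 11 clock genes and the output gene Usp2 in each mouse of 12 weeks (vertical axis, log2 signal relative to the 75th percentile of the array) against ZT, jet-lagged mice in red on the left of each panel and steady mice in grey on the right. Lines join the plain means of 2, 3 and 3 mice. In jet-lagged mice Dbp and Nfil3 overlap at all 3 times, with fitted ranges of 0.76 and 0.27, against 6.55 and 2.72 in steady mice.

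Genes known as outputs of the clock also varied. Of 25 listed, 23 were measured and 17 varied under jet lag, against 20 in the steady schedule (5.63% and 17.4% of all genes). Their median range was 1.51 in jet-lagged and 2.07 in steady mice, and 13 of the 17 were lowest at ZT2. The count was 12 without ZT2 mouse 1, again 12 without mouse 2, and 11 with slide as a fixed block. Usp2, a deubiquitinase, measured -0.74 and 0.40 at ZT2, 3.83, 3.52 and 3.92 at ZT10, and 4.02, 4.07 and 3.73 at ZT18 in jet-lagged mice, against -1.53 and -1.17 at ZT2, 4.00, 3.89 and 3.87 at ZT10, and 2.68, 2.65 and 2.05 at ZT18 in steady mice. The 6 later jet-lagged mice lay close together and far above both ZT2 mice, with a range of 3.99 (adjusted p 4.8e-06, called in all 8 fits without 1 mouse). Usp2 was 15.8-fold higher at ZT18 than at ZT2 under jet lag and 13-fold in the steady schedule. At ZT10 it was 15.8-fold higher than at ZT2 under jet lag and 41.7-fold in the steady schedule. No p-value for a difference between schedules is given here for Usp2.

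Noct, a circadian phosphatase of nicotinamide cofactors, had -0.16 and 1.34 at ZT2, 2.80, 3.67 and 4.05 at ZT10, and 4.09, 3.83 and 3.65 at ZT18, a range of 3.28 (adjusted p 0.000128). Wee1, a kinase that holds back mitosis, had -1.83 and -1.41 at ZT2, 1.07, 0.53 and 0.92 at ZT10, and 0.93, 1.00 and 0.91 at ZT18, a range of 2.57 (adjusted p 6.68e-05). Both kept their calls in all 8 fits without 1 mouse, and in both the groups of ZT10 and ZT18 overlapped. Nrg4, a growth factor secreted by adipose tissue and liver, had -1.32 and -0.08 at ZT2, 1.65, 1.30 and 1.85 at ZT10, and 1.87, 1.43 and 1.96 at ZT18 under jet lag, against -1.41 and -0.96 at ZT2, 2.14, 2.47 and 2.00 at ZT10, and -0.66, -0.13 and -0.44 at ZT18 in steady mice. The steady ZT18 mice had come most of the way back to ZT2 while the jet-lagged ones had not, and the interaction had an adjusted p of 0.00463 (0.119 with acinar and muscle marker levels as covariates). Por, the electron donor of microsomal P450 enzymes, had 5.43 and 5.86 at ZT2, 7.45, 7.28 and 7.64 at ZT10, and 7.28, 7.51 and 7.41 at ZT18, a range of 1.90 (adjusted p 8.24e-05).

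Between ZT18 and ZT10, where the replication is best, hardly any gene passed the threshold in jet-lagged mice. Differences over 1 log2 were seen in 390 genes, against 950 in steady mice. Some genes that missed the threshold had groups without overlap, such as Hsph1 and Igfbp1 below. The 6 calls were 1 gene higher at ZT18, Ddit3, and 5 lower, namely Exo5, Zfp763, Zfp867 and 2 features without a gene symbol (probe A_55_P2071846 and transcript ENSMUST00000095785). The pair had 0 calls with slide as a fixed block, without a slide block, with marker covariates, without the filter on dim probes, and with the 8 arrays alone. Ddit3 encodes CHOP, a transcription factor of the unfolded protein response, and measured 0.82, 0.84 and 1.03 at ZT18 and -0.54, -0.24 and -0.20 at ZT10 in jet-lagged mice, against 0.01, 0.13 and 0.28 at ZT18 and -0.62, -0.48 and -0.37 at ZT10 in steady mice. Every jet-lagged ZT18 mouse lay above every ZT10 mouse, by 1.33 ± 0.22 (SE) or 2.52-fold (adjusted p 0.0402). The steady difference was 0.66 ± 0.22 (adjusted p 0.051), and the 2 differences were not separated by the interaction test (adjusted p 0.321).

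Exo5, a DNA exonuclease, measured -1.16, -1.63 and -1.16 at ZT18 and -0.68, -0.57 and -0.46 at ZT10 in jet-lagged mice, against -0.59, -0.40 and -0.40 at ZT18 and -0.67, -0.55 and -0.46 at ZT10 in steady mice. It fell by 0.72 ± 0.12 under jet lag (1.64-fold, adjusted p 0.0402), whereas the steady difference was 0.11 ± 0.12, and the interaction for this pair had an adjusted p of 0.00969. Zfp867, a zinc finger gene, had -2.12, -1.80 and -1.96 at ZT18 and -0.94, -1.08 and -1.03 at ZT10 and was 1.96-fold lower at ZT18 (adjusted p 0.041). Zfp763, another zinc finger gene, had -4.14, -4.91 and -4.03 at ZT18 and -3.13, -2.99 and -3.06 at ZT10 (adjusted p 0.041) and was well above background in all 3 ZT10 mice but in 0 of 3 ZT18 mice. In both zinc finger genes the groups did not overlap. Of the 8 fits that left out 1 jet-lagged mouse, 3 kept the call of Ddit3, 4 that of Exo5, 4 that of Zfp763 and 2 that of Zfp867, and the number of calls in such fits was between 0 and 12.

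The steady mice differed at the same pair in 3304 genes. Over those genes, chosen by the steady mice, the median absolute difference was 0.12 under jet lag, against 0.58 in the steady schedule, and over all genes it was 0.12 and 0.22. Tested as a difference between schedules, ZT18 minus ZT10 called 592 genes (2.56%). Acinar markers had a median ZT18 minus ZT10 over 10 genes of -3.18 under jet lag and 1.32 in the steady schedule. Muscle markers had medians over 18 genes of -3.77 under jet lag and 4.66 in the steady schedule. With both marker levels as covariates the interaction of this pair called 10 genes, and with slide as a fixed block 128. Among core clock genes, Arntl differed by 0.24 ± 0.52 under jet lag and 5.44 ± 0.52 in the steady schedule (interaction adjusted p 0.000485). Dbp differed by -0.33 ± 0.44 and -4.64 ± 0.44 (interaction adjusted p 0.000532). Nr1d1 differed by 0.04 ± 0.57 under jet lag, whereas in steady mice it was at least 23.2-fold lower at ZT18, where it was not above background (interaction adjusted p 0.000524). Such a bound sets the dim group to the background level of its arrays.

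**Figure D3:**
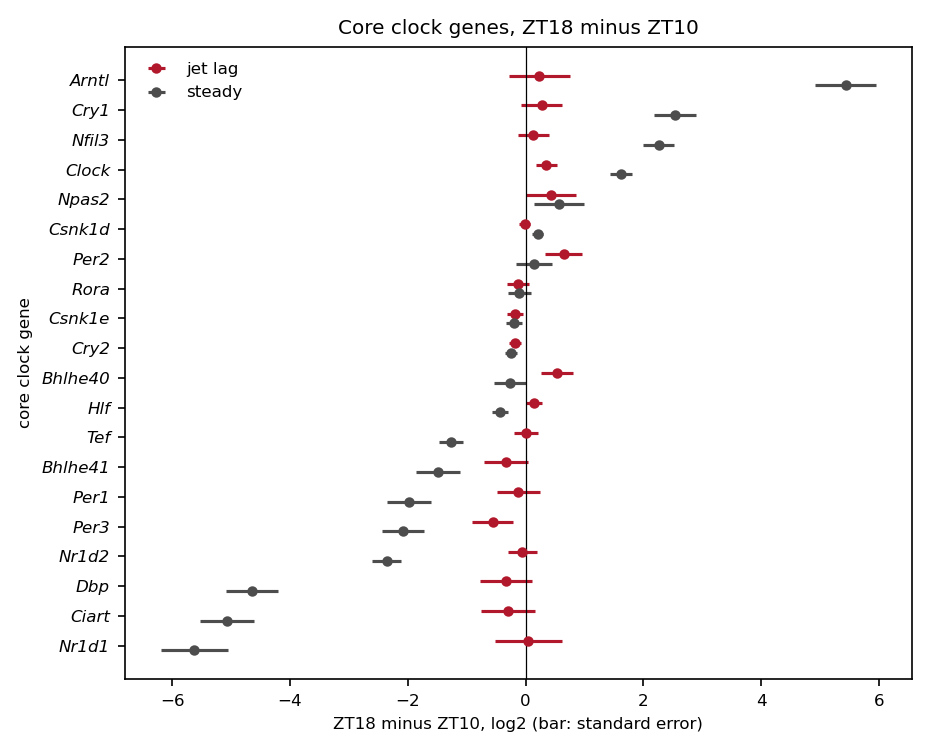
Difference between ZT18 and ZT10 (horizontal axis, log2) of 20 core clock genes in mice of 12 weeks, with jet-lagged mice in red above steady mice in grey and bars for the standard error. Of the 22 listed, 0 were called under jet lag for this pair, and in steady mice 5 were higher and 9 lower.

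Heat shock genes, which encode chaperones induced by heat shock factor 1 and follow body temperature in liver, stood highest at ZT18 under jet lag. The list of 22 also holds genes induced by cold, such as Cirbp. In steady mice 17 of the 21 measured were called (17.4% of all genes). Under jet lag 9 varied (5.63% of all genes), 8 of them with the highest level at ZT18. The count was 7 without ZT2 mouse 1, 7 without mouse 2 and 4 with slide as a fixed block. Between ZT18 and ZT10 alone, 0 members passed under jet lag while 16 were higher and 2 lower in the steady schedule, where 0.026% and 14.3% of all genes were called for this pair. The median difference was 0.41 under jet lag and 0.88 in the steady schedule, and 4 members differed between schedules in their time course.

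The promoter of Hspa1a is shown with the one match to a heat shock element (GAANNTTC) in capitals, 104 bases before the start (RefSeq, GRCm38.p6).
Hspa1a (chr17:34972157-34972406, minus strand): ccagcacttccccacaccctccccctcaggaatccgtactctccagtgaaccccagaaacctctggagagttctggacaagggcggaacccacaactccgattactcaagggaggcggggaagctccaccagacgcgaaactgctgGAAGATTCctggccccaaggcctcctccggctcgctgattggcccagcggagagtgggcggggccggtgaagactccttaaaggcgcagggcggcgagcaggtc
Such a match stood in 6.69% of all promoters, in 2 of 8 called list members with an entry and in 3 of 8 that were not called.

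Hspa1a, the inducible HSP70, measured -3.01 and -1.71 at ZT2, -2.76, -1.84 and -2.87 at ZT10, and -0.85, -0.48 and -0.24 at ZT18 in jet-lagged mice, against -3.75 and -3.35 at ZT2, -3.08, -2.90 and -3.34 at ZT10, and -1.86, -2.02 and -0.93 at ZT18 in steady mice. All jet-lagged ZT18 mice lay above the 5 others, and the range was 2.15 (adjusted p 0.0121), a call lost without ZT18 mouse 3 (adjusted p 0.0768). A near-identical copy, Hspa1b, can share its probes. Hsph1, the HSP110 partner of HSP70, had 2.42 and 2.59 at ZT2, 3.15, 3.42 and 2.92 at ZT10, and 3.95, 4.29 and 4.62 at ZT18 in jet-lagged mice, a range of 1.76 (adjusted p 0.00443). Bag3, a co-chaperone of HSP70, had 3.19 and 3.11 at ZT2, 2.97, 3.61 and 3.23 at ZT10, and 4.18, 4.32 and 4.73 at ZT18, a range of 1.30 (adjusted p 0.00325). In both genes every ZT18 mouse lay above every earlier mouse, and both stayed called in all 8 fits without 1 mouse. Dnajb1, an HSP40, ranged over 1.12 (adjusted p 0.00123). Cirbp, an RNA-binding protein induced by mild cold, ran the other way and had 2.33 and 2.67 at ZT2, 2.27, 1.92 and 2.38 at ZT10, and 1.61, 1.39 and 1.34 at ZT18, lowest at ZT18 (range 1.05, adjusted p 0.0195, and up to 0.119 in the 3 fits without 1 mouse that lost the call).

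The unfolded protein response, which raises chaperones and stress factors when proteins misfold in the endoplasmic reticulum, gave 8 called genes of 29 under jet lag, against 18 in steady mice (5.63% and 17.4% of all genes). Of the 8, 6 were highest at ZT18 and 2 at ZT2. The list had 7 calls without ZT2 mouse 1, 3 without mouse 2 and 3 with slide as a fixed block. Their promoters are represented by Creld2, which encodes a stress-induced protein of the endoplasmic reticulum, and Hspa5, which encodes the chaperone BiP and was picked after its values were seen. The ER stress element, CCAAT, 9 free bases and CCACG, is in capitals (RefSeq, GRCm38.p6).
Creld2 (chr15:88819396-88819645, plus strand): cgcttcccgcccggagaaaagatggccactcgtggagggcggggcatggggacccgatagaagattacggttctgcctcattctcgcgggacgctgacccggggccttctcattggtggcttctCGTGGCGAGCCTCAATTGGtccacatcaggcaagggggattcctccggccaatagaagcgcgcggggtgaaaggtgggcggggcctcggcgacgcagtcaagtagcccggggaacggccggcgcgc
Hspa5 (chr2:34771840-34772089, plus strand): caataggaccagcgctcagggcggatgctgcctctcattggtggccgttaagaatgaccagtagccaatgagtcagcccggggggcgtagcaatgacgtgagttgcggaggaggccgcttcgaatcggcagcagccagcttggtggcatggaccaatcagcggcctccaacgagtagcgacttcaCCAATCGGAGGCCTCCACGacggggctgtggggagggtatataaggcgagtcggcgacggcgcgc
The element begins 126 bases before the start of Creld2, where it lies on the opposite strand, and 65 before that of Hspa5. It stood in 0.113% of all promoters, in 2 of 8 called members of the list and in 7 of 17 members with an entry that were not called.

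Creld2 measured 4.47 and 4.42 at ZT2, 4.71, 4.97 and 4.80 at ZT10, and 6.25, 5.65 and 6.70 at ZT18 in jet-lagged mice, against 5.48 and 5.48 at ZT2, 4.24, 3.74 and 3.80 at ZT10, and 5.79, 6.15 and 6.15 at ZT18 in steady mice. Jet-lagged ZT18 mice lay above all others. In steady mice ZT10 formed a low point below ZT2, but no p-value for a difference between schedules is given here for Creld2. The jet-lagged range was 1.74 (adjusted p 0.00519), and ZT18 exceeded ZT2 3.34-fold. Herpud1, which helps to clear misfolded proteins, had 6.23 and 6.12 at ZT2, 6.52, 6.87 and 6.90 at ZT10, and 7.46, 7.14 and 7.54 at ZT18, so that ZT10 already stood above ZT2 (ZT10 minus ZT2 0.60 ± 0.16, adjusted p 0.0331, range 1.25, adjusted p 0.00013). No 2 times overlapped in Herpud1. Hspa5 had 6.99 and 7.15 at ZT2, 6.87, 7.26 and 7.15 at ZT10, and 7.73, 7.65 and 8.01 at ZT18, a range of 0.69 (adjusted p 0.0322) that stayed called in 3 of the 8 fits without 1 mouse (adjusted p up to 0.183). Trib3, a pseudokinase downstream of CHOP, had 3.03 and 3.53 at ZT2, 2.16, 1.15 and 1.73 at ZT10, and 1.33, 0.53 and 1.29 at ZT18, highest at ZT2 (range 2.03, adjusted p 0.00275, and 0.0835 without ZT2 mouse 2).

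Of 18 measured immediate early genes 4 varied under jet lag, 3 of them highest at ZT2, against 6 in steady mice (5.63% and 17.4% of all genes). The list had 2 calls without ZT2 mouse 1 and 1 with slide as a fixed block. Egr1, a growth factor-induced transcription factor, had 2.54 and 0.90 at ZT2, -1.24, -0.01 and -1.62 at ZT10, and -3.20, -2.05 and -3.13 at ZT18 in jet-lagged mice. Its range of 4.54 was the largest of the called genes named here (adjusted p 0.00626, and 0.072 without ZT2 mouse 1), and ZT18 was 23.3-fold lower than ZT2. Nr4a1, an orphan nuclear receptor, had 2.74 and 0.84 at ZT2, -0.48, -0.33 and -0.07 at ZT10, and -0.10, -0.74 and -0.25 at ZT18, a range of 2.08 (adjusted p 0.00124, and 0.0903 without ZT2 mouse 1). The ZT10 and ZT18 mice overlapped in Nr4a1, and the 2 ZT2 mice lay far apart above them.

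Of 28 measured genes of glucose handling and the insulin response 6 varied in jet-lagged mice, against 18 in steady mice (5.63% and 17.4% of all genes). The list had 4 calls without ZT2 mouse 1, 4 without mouse 2, and 3 at the fewest in the 8 fits without 1 mouse. Igfbp1, a secreted binding protein induced by fasting and repressed by insulin, had 6.39 and 5.65 at ZT2, 5.46, 4.54 and 4.78 at ZT10, and 2.75, 2.53 and 3.48 at ZT18 under jet lag. It was lowest at ZT18, without overlap with ZT10 (range 2.77, adjusted p 0.0138, and up to 0.0566 without ZT18 mouse 1 or 2), but ZT18 minus ZT10 alone missed the threshold (-2.19 ± 0.58, adjusted p 0.367). Gys2, liver glycogen synthase, had 5.59 and 6.08 at ZT2, 7.11, 6.56 and 6.87 at ZT10, and 6.60, 6.89 and 6.94 at ZT18 in jet-lagged mice, against 5.44 and 5.23 at ZT2, 7.14, 7.37 and 7.17 at ZT10, and 6.19, 6.35 and 6.32 at ZT18 in steady mice. It was 2.13-fold higher at ZT10 than at ZT2 under jet lag, against 3.86-fold in the steady schedule, and the time courses differed (adjusted p 0.0331, and 0.37 with the marker covariates). Slc37a4, the glucose 6-phosphate transporter, had 5.96 and 6.30 at ZT2, 7.10, 6.95 and 7.20 at ZT10, and 7.20, 7.20 and 7.32 at ZT18, a range of 1.10 (adjusted p 0.0001).

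**Figure D4:**
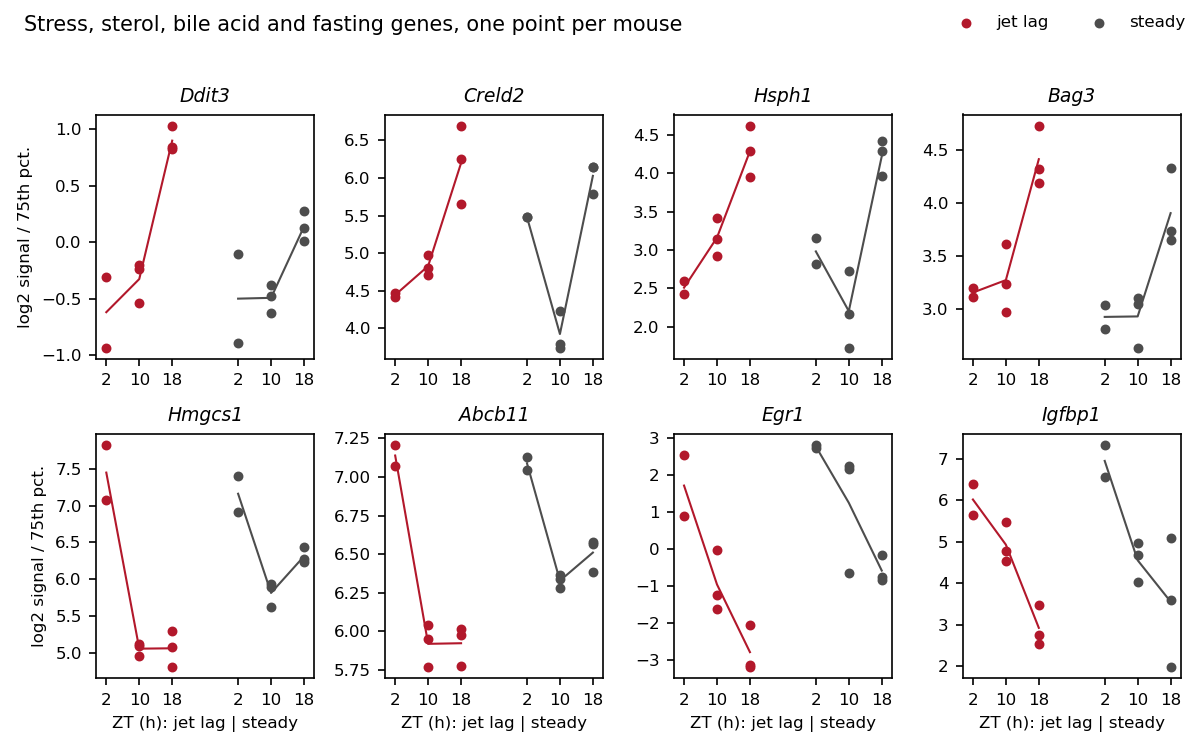
Level of 8 genes in each mouse of 12 weeks (vertical axis, log2 signal relative to the 75th percentile of the array) against ZT, with jet-lagged mice in red on the left and steady mice in grey on the right, lines joining the plain means of 2, 3 and 3 mice. Ddit3, Creld2, Hsph1 and Bag3 are highest in all 3 jet-lagged ZT18 mice, and Hmgcs1, Abcb11, Egr1 and Igfbp1 in both jet-lagged ZT2 mice.

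Cholesterol synthesis was a group with more calls under jet lag than in the steady schedule, although 0 of its genes passed the limma test of the difference between schedules (in which 3397 of all genes had an unadjusted p under 0.05). Of 26 genes 11 varied in jet-lagged mice, all highest at ZT2, against 7 in steady mice (5.63% and 17.4% of all genes), and 13 were lower at ZT18 than at ZT2 under jet lag. The median range was 0.77 in jet-lagged and 0.54 in steady mice. The list had 3 calls without ZT2 mouse 1, 3 without mouse 2 and 3 with slide as a fixed block. Hmgcs1, which makes the HMG-CoA that feeds the pathway, measured 7.07 and 7.82 at ZT2, 5.13, 4.96 and 5.09 at ZT10, and 5.08, 5.30 and 4.80 at ZT18 in jet-lagged mice, against 7.41 and 6.92 at ZT2, 5.62, 5.94 and 5.89 at ZT10, and 6.43, 6.28 and 6.23 at ZT18 in steady mice. The jet-lagged ZT10 and ZT18 mice overlapped, and ZT18 was 5.12-fold lower than ZT2 (range 2.36, adjusted p 0.000329, called in all 8 fits without 1 mouse). Mvd, a decarboxylase of the mevalonate steps, had 2.55 and 2.60 at ZT2, 0.75, 1.25 and 0.86 at ZT10, and 1.05, 1.69 and 1.11 at ZT18 (range 1.57, adjusted p 0.00351, and 0.0654 without ZT2 mouse 1). Sqle, which oxidises squalene, had 5.37 and 5.90 at ZT2, 3.89, 4.41 and 4.07 at ZT10, and 4.21, 4.29 and 4.23 at ZT18 (range 1.40, adjusted p 0.0183), and its adjusted p was 0.0922 without ZT2 mouse 1 and 0.216 without mouse 2. In Mvd and Sqle, too, both ZT2 mice were above the 6 others.

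Fatty acid and triglyceride synthesis split into both directions. Of 32 genes 9 varied under jet lag, against 14 in steady mice (5.63% and 17.4% of all genes). The list had 4 calls without ZT2 mouse 1, 2 without mouse 2 and 2 with slide as a fixed block. Insig2, which retains the SREBP activators in the endoplasmic reticulum, had 5.22 and 5.44 at ZT2, 3.68, 4.13 and 4.22 at ZT10, and 3.75, 3.55 and 4.25 at ZT18, highest at ZT2 (range 1.38, adjusted p 0.0186). Elovl3, a fatty acid elongase, had 6.01 and 5.14 at ZT2, 2.62, 4.30 and 3.43 at ZT10, and 3.04, 3.32 and 3.68 at ZT18 under jet lag, against 6.78 and 6.57 at ZT2, 1.70, 2.74 and 2.12 at ZT10, and 6.24, 5.93 and 5.86 at ZT18 in steady mice. Its steady ZT18 level was back near that of ZT2 while the jet-lagged one was not (jet-lagged range 2.19, adjusted p 0.0359, interaction adjusted p 0.0147, and 0.341 with the marker covariates). Thrsp, a lipogenic protein, had 6.09 and 7.47 at ZT2, 8.02, 8.64 and 8.56 at ZT10, and 8.38, 8.72 and 8.44 at ZT18, lowest at ZT2 (range 1.69, adjusted p 0.00563, and 0.197 without ZT2 mouse 1). Lpin1, a phosphatidate phosphatase, had 1.11 and 1.38 at ZT2, 2.63, 3.20 and 2.79 at ZT10, and 2.93, 3.04 and 2.96 at ZT18, also lowest at ZT2 (range 1.54, adjusted p 0.0193). Without ZT2 mouse 1 or mouse 2 the adjusted p was 0.0728 and 0.258 for Insig2, 0.278 and 0.126 for Elovl3, and 0.164 and 0.127 for Lpin1. Of 28 fatty acid oxidation genes 4 varied, all highest at ZT18, among them Acot3, a peroxisomal thioesterase with close paralogs that had -2.48 and -1.73 at ZT2, 1.38, -0.92 and 2.18 at ZT10, and -0.67, 1.84 and 2.17 at ZT18 (range 2.99, adjusted p 0.0425). Its ZT10 and ZT18 mice were spread widely and overlapped, and 2 of the 8 fits without 1 mouse kept its call (adjusted p up to 0.3). The list had 0 calls without ZT2 mouse 1 or with fixed slides, and 2 without mouse 2.

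Bile acid genes gave 4 calls of 26, against 13 in steady mice, where 5.63% and 17.4% of all genes were called. Cyp7a1, whose enzyme limits the rate at which bile acids are made, had 1.57 and 1.78 at ZT2, 3.74, 3.47 and 3.70 at ZT10, and 3.94, 3.79 and 3.92 at ZT18 in jet-lagged mice, against 0.72 and 1.76 at ZT2, 3.67, 4.07 and 3.25 at ZT10, and 3.46, 3.26 and 3.70 at ZT18 in steady mice. Both ZT2 mice were below the 6 later ones in each schedule, and ZT18 exceeded ZT2 4.39-fold under jet lag and 4.39-fold in the steady schedule (jet-lagged range 2.13, adjusted p 0.00312, and 0.0586 without ZT2 mouse 1). Abcb11, the pump that exports bile salts, ran the other way with 7.07 and 7.21 at ZT2, 5.95, 6.04 and 5.77 at ZT10, and 5.98, 6.02 and 5.77 at ZT18. Its range of 1.19 had an adjusted p of 1.1e-06, and it was 2.28-fold lower at ZT10 and 2.27-fold lower at ZT18 than at ZT2. Hsd3b7, an enzyme of bile acid synthesis, had 8.24 and 8.40 at ZT2, 7.05, 6.85 and 6.95 at ZT10, and 7.07, 6.81 and 6.92 at ZT18 (range 1.32, adjusted p 0.000115). Abcb11 and Hsd3b7 were called in all 8 fits without 1 mouse.

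In the remaining lists between 1 and 5 genes were called, where 5.63% of all genes were. Acute phase genes gave 4 of 31, glutathione and NRF2 genes 5 of 30, autophagy and lysosome genes 5 of 20, P450 and haem genes 5 of 24, growth hormone and sex-biased genes 4 of 21, and ribosome biogenesis genes 1 of 32. Without ZT2 mouse 1 the P450 list had 1 call, the glutathione and autophagy lists had 3 each and ribosome biogenesis had 2. Without ZT2 mouse 2 the acute phase, glutathione and growth hormone lists had 1 call each, autophagy had 2 and ribosome biogenesis 0. With slide as a fixed block the acute phase and growth hormone lists had 2 calls each, the glutathione list 1, the autophagy and P450 lists 3 each and ribosome biogenesis 0. Il6ra, an interleukin 6 receptor chain, had 4.11 and 4.06 at ZT2, 5.25, 5.10 and 5.28 at ZT10, and 5.44, 5.12 and 5.12 at ZT18 (range 1.10, adjusted p 0.0028). Hsd3b5, a male-biased steroid enzyme with close paralogs, had 7.59 and 7.80 at ZT2, 6.47, 6.32 and 6.32 at ZT10, and 6.56, 6.30 and 6.22 at ZT18 (range 1.16, adjusted p 0.00881, and 0.176 without ZT2 mouse 2). Il6ra was lowest and Hsd3b5 highest in the 2 ZT2 mice. Gstt2, a glutathione transferase, had 2.39 and 3.31 at ZT2, 4.16, 3.56 and 4.14 at ZT10, and 3.75, 4.13 and 4.36 at ZT18 (range 1.27, adjusted p 0.00277, and 0.133 without ZT2 mouse 1). Bnip3, a mitophagy receptor, had 5.62 and 6.31 at ZT2, 6.58, 6.40 and 7.07 at ZT10, and 6.66, 7.03 and 6.98 at ZT18 (range 0.94, adjusted p 0.00549, and 0.178 without ZT2 mouse 1). Both genes were lowest in the 2 ZT2 mice. Interferon response genes gave 4 of 24, all highest at ZT2, with 0 calls without ZT2 mouse 2 and 1 with fixed slides. Rsad2, an antiviral enzyme, had 0.97 and 1.32 at ZT2, 0.21, 0.05 and 0.37 at ZT10, and 0.05, -0.26 and -0.09 at ZT18 (adjusted p 0.00267, and 0.119 without ZT2 mouse 2).

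Of 26 measured cell cycle genes 6 varied in jet-lagged mice (5.63% of all genes), 4 of them highest at ZT10, and 3 were called without ZT2 mouse 2. Ccne1, a cyclin of S phase entry, had -0.59 and -1.13 at ZT2, 0.98, 0.40 and 0.07 at ZT10, and 0.33, 0.07 and -0.18 at ZT18 (range 1.54, adjusted p 0.0104, and 0.241 without ZT2 mouse 2). Its other probe differed between ZT10 and ZT2 by 0.19, against 1.34 for the one shown, and the mean of the probes was not called (range 1.00, adjusted p 0.239). Tk1, a thymidine kinase, had 2.48 and 2.64 at ZT2, 3.49, 3.73 and 3.62 at ZT10, and 3.74, 3.72 and 3.34 at ZT18 (range 1.10, adjusted p 0.000145). In both genes the 2 ZT2 mice were lowest. Of markers of other cells, 1 of 11 MHC class II and B cell genes, 2 of 7 neutrophil genes and 2 of 11 stellate cell genes varied, all highest at ZT2, and 0 Kupffer cell, endothelial, erythroid, adipocyte and bile duct markers passed. With slide as a fixed block the MHC, neutrophil and stellate lists had 0, 1 and 1 calls, and with marker covariates 0, 1 and 2. Each of these lists also lost calls without either ZT2 mouse.

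**Figure D5:**
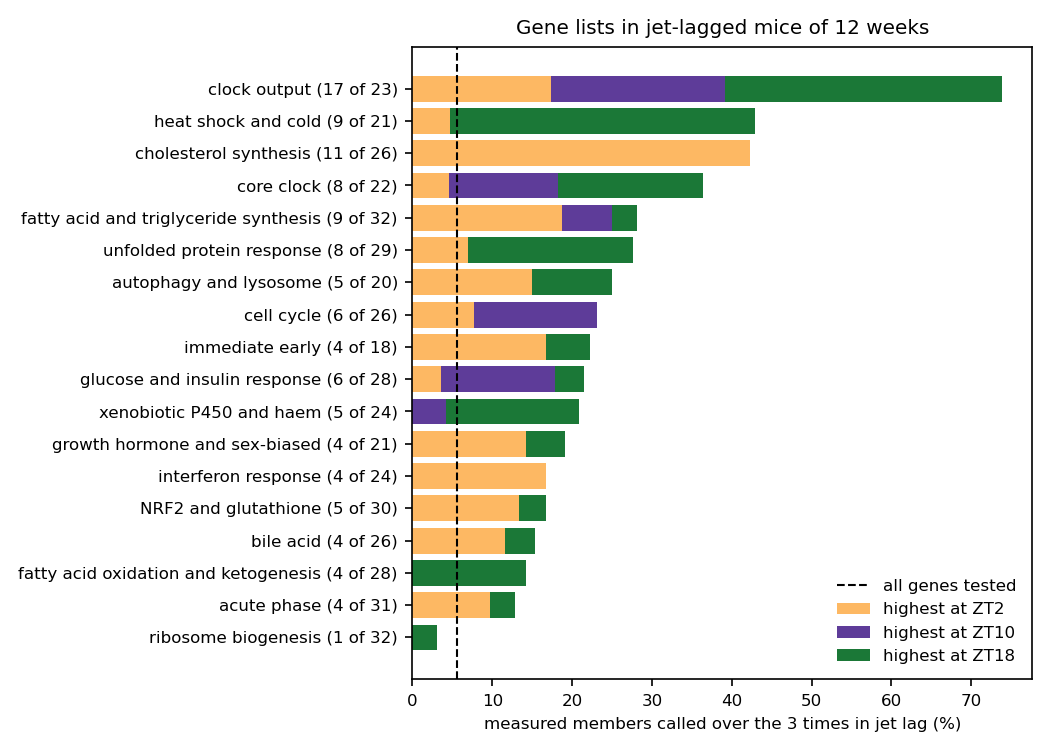
Share of the measured members of each gene list called over the 3 times in jet-lagged mice of 12 weeks (horizontal axis, percent, with counts beside the names), coloured by the time of the highest fitted mean. The dashed line marks all genes tested (5.63%), and clock output has the highest share with 17 of 23.

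Genes with no list were among the largest ranges. Sly, a gene of the Y chromosome with many near-identical copies, measured -1.81 and -1.30 at ZT2, -4.88, -4.00 and -4.93 at ZT10, and -4.69, -4.13 and -5.14 at ZT18 in jet-lagged mice. It was well above background in both ZT2 mice and in none of the 6 later ones, which puts ZT2 at least 4.22-fold above the lowest of the later times (adjusted p 0.0012, and 0.0777 without ZT2 mouse 2). Chrna4, a nicotinic receptor subunit, had -1.92 and -0.75 at ZT2, -3.82, -4.26 and -4.50 at ZT10, and -5.43, -4.57 and -4.40 at ZT18, at least 4.93-fold higher at ZT2 than at ZT18 (adjusted p 0.00608, and 0.127 without ZT2 mouse 2). Pdxp, a pyridoxal phosphatase, had -5.00 and -5.27 at ZT2, -2.04, -2.49 and -1.96 at ZT10, and -2.25, -1.74 and -1.82 at ZT18, at least 3.01-fold higher at ZT18 than at ZT2 (adjusted p 0.000762, called in all 8 fits without 1 mouse). Pdxp was well above background in 0 of the 2 ZT2 mice and in all 6 later ones. Clec2h, a C-type lectin, had 1.41 and 2.72 at ZT2, 0.90, -0.94 and -0.23 at ZT10, and -1.04, -1.10 and -1.34 at ZT18, 7.94-fold lower at ZT18 than at ZT2 (range 2.99, adjusted p 0.00338, and 0.105 without ZT2 mouse 2). Gadd45g, a stress-inducible growth arrest gene, had 5.55 and 6.88 at ZT2, 4.02, 2.93 and 5.64 at ZT10, and 2.76, 2.46 and 2.25 at ZT18. It fell by 3.88 between ZT2 and ZT18 (adjusted p 0.0388) yet did not pass over the 3 times (adjusted p 0.105).

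Of the 1301 genes that varied under jet lag, 753 also varied in steady mice, which is 57.9% of the jet-lagged and 18.7% of the steady calls. Of all genes, 17.4% were called in steady and 5.63% in jet-lagged mice. No mouse is shared by these tests, but they share 1 error estimate per gene. The highest time was the same in both schedules for 537 of the 753. Among genes highest at ZT2 under jet lag it was 346 at ZT2, 63 at ZT10 and 26 at ZT18 in steady mice, and among those highest at ZT18 it was 0 at ZT2, 96 at ZT10 and 111 at ZT18. For ZT10 minus ZT2 both schedules called 464 genes (50% of the jet-lagged and 23.9% of the steady calls), 454 in the same direction. This pair called 8.39% of all genes in steady and 4.02% in jet-lagged mice. For ZT18 minus ZT2 both called 490 (26.6% and 39.5%), 488 in the same direction, where 5.36% of all genes were called in steady and 7.96% in jet-lagged mice. A gene past the threshold in 1 schedule and not in the other is not shown to differ between them, and the test of that difference called 438 genes, or 37 with the marker covariates. Tmem171 was one of them (adjusted p 5.29e-05), although it was well above background on 0 of the 8 jet-lagged arrays.

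At 30 weeks the jet-lagged mice varied in 849 genes (3.67%). At 12 weeks 5.63% of all genes were called. Of the 12-week calls 242 were shared, 18.6% of the 12-week and 28.5% of the 30-week calls, and 174 of them had the same highest time. ZT18 minus ZT10 called 0 genes at 30 weeks in limma, with 1626 at an unadjusted p under 0.05 and a smallest adjusted p of 0.0549. Tested directly, 89 genes differed between the ages in their time course (0.385%). That count was 16 with slide as a fixed block, 59 with marker covariates, 57 and 134 without ZT2 mouse 1 and mouse 2 of 30 weeks, and 242 without ZT2 mouse 1 of 12 weeks. Abcb11 had a range of 1.19 at 12 weeks and 0.68 at 30 weeks (age by time adjusted p 0.0467), Creld2 1.74 and 1.42 (adjusted p 0.0371), and Herpud1 1.25 and 0.13 (adjusted p 0.0447). Acacb, an acetyl-CoA carboxylase, ranged over 1.07 at 12 weeks, below the threshold, and over 2.28 at 30 weeks (age by time adjusted p 0.00445). The age by time test compares time courses, not ranges. Of the core clock genes 4 were called at 30 weeks, and 0 differed between the ages.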

How the data were processed

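RNA of 32 livers was hybridised to 1-colour Agilent arrays. Per the file headers, the authors' scanner software (Feature Extraction 11.0.1.1, though the submitters' processing notes name 9.1) subtracted background to give the processed signal intensity of 62976 spots. The authors also deposited a table of normalized log2 values, which was used as an alternative.

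Here, 3671 control spots were left out, log2 processed signal was taken minus the array's 75th percentile, and probes well above background on every array of at least 1 group were kept. The brightest probe stood for each gene, giving 23110 genes, of which 14082 had a symbol. Of 23 called named genes with another kept probe, the other probes all had the same sign in 22. All 32 arrays were fitted as 12 group means in limma 3.58.1 (R 4.3.3 with data.table, version 1.17.8), with slide as a random block (estimated correlation 0.250) and moderated by the empirical Bayes method. F tests over the 3 times, pairwise differences and their interactions with schedule or age were adjusted by Benjamini-Hochberg, and genes under 0.05 were called. The code was tested on simulated data. Each array is 1 mouse.

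Members and lists were chosen with earlier results of these data known. Named genes were the called genes of largest range or change in each test, every core clock gene, and 5 members at most of any further list, with 2 core clock genes counted but not reported here. Alternatives changed the normalization, background, filter, block, arrays, probe rule and covariates, or left out 1 mouse. Promoters came from RefSeq's GRCm38.p6 set, and no promoter is shown for a gene without an entry in it.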

Additional observations from a re-analysis of the deposited data

Results flagged for a closer look

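The time courses of jet-lagged and steady mice differed, by limma's test of schedule by time of day at 12 weeks, in 438 genes, and in 592 genes for ZT18 minus ZT10 alone. Covariates for acinar and muscle marker levels gave 37 and 10, and slides entered as fixed effects gave 89 and 128. Markers, slides and schedule were not otherwise separated, and their part in these differences was not tested further.

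Of the core clock genes, the adjusted p of this difference was 0.001 for Arntl, 0.00995 for Clock, 0.0454 for Npas2, 0.01 for Per3, 0.00995 for Cry1 and 0.00168 for Nr1d1. It was 0.0021 for Nr1d2, 0.000199 for Dbp, 0.00157 for Tef, 0.001 for Nfil3 and 0.00069 for Ciart. With the marker covariates it was 0.00454 for Dbp, 0.0282 for Nfil3, 0.0415 for Ciart, 0.0259 for Tef and 0.0496 for Arntl. It was 0.0968 for Clock, 0.168 for Npas2, 0.0851 for Per3, 0.119 for Cry1, 0.119 for Nr1d1 and 0.119 for Nr1d2.

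Outside the core clock, the same test gave an adjusted p of 0.00463 for Nrg4, 0.0251 for Exo5, 0.0471 for Trib3 and 0.0331 for Gys2. The values of Elovl3, Insig2, Ccne1 and Tmem171 were 0.0147, 0.048, 0.0335 and 5.29e-05. With the marker covariates Nrg4, Gys2 and Elovl3 missed the threshold, and values for the other genes of this paragraph are not reported here. Tmem171 was well above background on 0 of the 8 jet-lagged arrays.

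Between jet-lagged mice of 12 and 30 weeks, 89 genes differed in their time course. The adjusted p was 0.0371 for Creld2, 0.0447 for Herpud1, 0.0467 for Abcb11, 0.00117 for Chrna4 and 0.00445 for Acacb.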

How the results depend on the processing

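The arrays are few, and 43.4% to 57.3% of probes were well above background, so small changes and changes of dim genes could be missed. The 1301 genes called over the 3 times became 536 with slide as a fixed block, 156 with the 8 arrays alone and 2340 with the authors' deposited values, and 489 to 1387 without 1 mouse. ZT18 minus ZT10 called 6 genes, but 1 with quantile normalization, 3 with normexp on median signals (added after seeing the data, since no mean signal column was found, so the planned normexp was not run), and 0 each without a filter on dim probes, with fixed slides, without a slide block, with the 8 arrays alone and with marker covariates. Without 1 mouse it called 0 to 12. ZT10 minus ZT2 called 928 genes, but 488 with fixed slides, 167 with the 8 arrays alone, 1817 with the authors' values and 552 with marker covariates, and 470 to 1006 without 1 mouse. ZT18 minus ZT2 called 1839 genes, but 782 with fixed slides and 438 with the 8 arrays alone, and 701 to 1833 without 1 mouse. Schedule by time called 438 genes, but 205 without the filter, 89 with fixed slides, 731 with the authors' values and 37 with marker covariates, and 181 to 781 without 1 mouse. For ZT18 minus ZT10 alone that test called 592 genes, but 311 without the filter, 128 with fixed slides and 10 with marker covariates, and 245 to 587 without 1 mouse. Age by time called 89 genes, but 16 with fixed slides and 59 with marker covariates, and 57 to 242 without 1 mouse. The 8 core clock calls became 5 when probes had to be above background on all arrays and 2 with the 8 arrays alone, and 3 to 9 without 1 mouse. The 8 arrays alone hold no second schedule or age, so those tests were not run on them. The fits on 8 arrays or without 1 mouse also hold fewer samples, and the cause of these shifts was not tested. A similar count does not mean that the same genes were called. With slide as a fixed block, 502 of the 1301 genes stayed called.

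Mouse numbers were not used to pair the samples in the main fit. Deviations from group means correlated at 0.007, -0.17 and -0.02 between ZT18 and ZT10 mice of the same number. Between ZT10 and ZT2 mice they correlated at 0.095 and 0.093, and between ZT18 and ZT2 mice at -0.017 and 0.013. With so few mice per group these values cannot exclude a pairing. With the replicate number as a block, 1106 genes were called over the 3 times, 2 for ZT18 minus ZT10, 819 for ZT10 minus ZT2, 1589 for ZT18 minus ZT2, 425 for schedule by time, 591 for schedule by ZT18 minus ZT10, 96 for age by time, and 8 core clock genes.

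Of the 68 genes named, 53 were called over the 3 times. Of these 23 stayed called in all 8 fits without 1 mouse, and 14 under all other alternatives. Fixed slides kept 36 of the 53, the marker covariates 50, the 8 arrays alone 20. Across all gene values and alternatives 2729 kept their direction and side of the threshold, 382 lost the call, 6 gained one and 0 turned direction. Many of these values are ranges over the 3 times, which cannot be negative, so a turn in direction could show only in pairwise differences. A change in the time of the highest level was not counted. The values that kept their side include genes that were never called, such as Rora.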
